A study of Mus musculus with 237 samples.

Results

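Keratinocytes that leave the basal layer of the epidermis exchange the keratins KRT5 and KRT14 for KRT1 and KRT10, and later build the cornified envelope, a sheet of cross-linked protein under the plasma membrane. Loricrin and involucrin are structural proteins of that envelope, and transglutaminases cross-link it. The secreted or cytoplasmic products of Krtdap, Sbsn, Dmkn and Calml3 accompany differentiation. In the mouse this programme begins around the middle of gestation, as an intermediate layer forms between the basal layer and the periderm, the transient outer cover of the embryo. The 10 genes described here are Krt1, Krt10, Lor, Ivl, Krtdap, Sbsn, Dmkn, Tgm1, Tgm3 and Calml3, chosen by name from the 55335 genes of the count table and matched by Ensembl identifier.

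The data are single-cell RNA-seq libraries from the skin of C57BL/6N mouse embryos at E14.5, 3 of them wild-type (WT) and 7 p63 knockout, made to compare keratinocytes with and without p63. Each cell was amplified on its own by SMART-Seq HT, which copies full-length cDNA and adds no molecular identifier. WT epidermis was freed with dispase before trypsin whereas knockout fetuses went straight into trypsin, and sorting kept cells negative for PI, CD45, TER119 and CD140a. The paper then describes a qPCR selection, on Krt5 where WT and on Krt8 where knockout, with a check that Pdgfra was not amplified. The labels still include 70 p63 KO fibroblasts, all from 1 embryo, so not every library is known to have passed that selection. Genotype, preparation and screening cannot be told apart. The knockouts were made by editing zygotes with Cas9, and which alleles each embryo carried is not given in the sources used here. Of 237 libraries, 16 could be tied to a label, all from 1 WT embryo: 11 WT-KCB (basal layer), 1 WT-KCI (intermediate layer) and 4 WT-KCP (periderm) cells. The other 221 carry no label here, and are described as a pool of libraries without genotype. The authors annotated cell types by hand from marker genes, Krt1, Krt10 and Lor among them for WT-KCI, so those 3 genes do not bear independently on the difference between labels. Cells of 1 embryo are not replicates, and no test was made on them.

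Levels are given as CPM, a gene's counts scaled to 1000000 counts of its library, and a gene was called present at 10 CPM or more. Total counts ran from 2701500 to 19197138 per library (6345186 to 9001846 in the labelled cells). Amplified reads are not independent molecules, so intervals cover counting error only.

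The upstream sequences of 6 genes are shown because these include the neighbours Sbsn, Dmkn and Krtdap, of which the last 2 were often detected in the same libraries, and Ivl, which was hardly detected at all. Sbsn, Dmkn and Krtdap lie one after another on the plus strand of chromosome 7 of GRCm38, at 30751471 to 30756134, 30763756 to 30781063 and 30787896 to 30791097. Lor (92080271 to 92083142) and Ivl (92570902 to 92573735) lie on the minus strand of chromosome 3, in the epidermal differentiation complex, and Krt10 (99385254 to 99389364, minus strand) lies among type I keratin genes on chromosome 11. Dmkn has 3 starts in that table, and the one shown is the first base of the gene given above. The 150 bases before the annotated start are given 5′ to 3′ on the strand of the gene, from RefSeq on GRCm38.p6. Capitals mark matches on either strand to any of 4 motifs, none of which overlap in these stretches. The motif of AP-1 was searched for with the letters TGANTCA. The motif of the C/EBP factors was searched for with the letters TTGCNNAA, and that of the Grainyhead factors with the letters AACNNGTT. The TATA box, a motif bound by the general transcription machinery, was searched for with the letters TATAAA.
Krtdap, chr7:30787755-30787904, plus strand: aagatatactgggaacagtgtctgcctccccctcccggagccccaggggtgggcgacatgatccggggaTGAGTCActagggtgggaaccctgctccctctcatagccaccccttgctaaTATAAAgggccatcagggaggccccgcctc
Dmkn, chr7:30763606-30763755, plus strand: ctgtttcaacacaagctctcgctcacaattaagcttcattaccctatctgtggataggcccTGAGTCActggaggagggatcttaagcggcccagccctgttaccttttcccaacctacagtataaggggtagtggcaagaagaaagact
Sbsn, chr7:30751321-30751470, plus strand: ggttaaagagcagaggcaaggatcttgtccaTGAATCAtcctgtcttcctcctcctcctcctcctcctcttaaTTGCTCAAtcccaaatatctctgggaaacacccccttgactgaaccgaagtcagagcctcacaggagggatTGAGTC
Lor, chr3:92083143-92083292, minus strand: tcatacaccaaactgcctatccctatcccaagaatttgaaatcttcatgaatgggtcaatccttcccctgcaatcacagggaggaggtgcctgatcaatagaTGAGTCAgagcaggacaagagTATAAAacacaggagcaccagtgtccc
Ivl, chr3:92573736-92573885, minus strand: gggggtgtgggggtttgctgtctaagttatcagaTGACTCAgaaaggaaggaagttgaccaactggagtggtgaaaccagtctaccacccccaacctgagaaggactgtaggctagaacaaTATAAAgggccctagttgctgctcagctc
Krt10, chr11:99389365-99389514, minus strand: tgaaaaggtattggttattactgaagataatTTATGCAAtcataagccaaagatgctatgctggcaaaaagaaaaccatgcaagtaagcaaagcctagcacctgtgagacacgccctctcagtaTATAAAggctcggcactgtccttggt

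An AP-1 match lay in the stretch shown for Krtdap, Dmkn, Sbsn, Lor and Ivl, and none lay in that of Krt10. Of the 8 genes in the promoter table, 5 held an AP-1 match, since Tgm1 and Tgm3, which are not shown, held none. The last match of Sbsn runs past the end of its stretch. Of 32851 RefSeq promoter windows (250 bases before to 50 after the start, so longer than the stretches shown), 7.81% hold an AP-1 match, 10.8% a C/EBP match, 4.2% a Grainyhead match and 13.6% a TATA box match. No window of the 10 genes that was available held a Grainyhead match. A match is a string of letters and not a binding site, and Ivl has AP-1 and TATA box matches like those of Lor but gave almost no counts.

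Krt1 and Krt10, the paired suprabasal keratins, were the most abundant of the 10 genes in the WT-KCI cell, at 13864 CPM (exact 95% Poisson interval 13783 to 13944) and 15380 CPM (15296 to 15465). In the 11 WT-KCB cells Krt1 ran from 0 to 23.96 CPM with a median of 7.51, and Krt10 from 1.31 to 31.2 with a median of 12.5. In the 4 WT-KCP cells Krt1 stood at 1.75, 16.8, 0 and 0 CPM and Krt10 at 5.83, 11.1, 19.4 and 0 CPM. The WT-KCI cell thus stood far above every WT-KCB and WT-KCP cell for both genes, and the values of WT-KCB and WT-KCP overlapped. The same cell held 1645 CPM of Krt5 but 12.9 CPM of Krt14, against 491 to 7156 and 3498 to 9464 CPM in WT-KCB.

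Dmkn and Krtdap, which encode secreted proteins of differentiating keratinocytes, were next in the WT-KCI cell, with 4518 CPM (4472 to 4564) and 1636 CPM (1609 to 1664). Both were also found at low and uneven levels in WT-KCB. Dmkn ran from 0.222 to 183 CPM (median 5.61) and reached 10 CPM in 5 of 11 cells. Krtdap ran from 0.285 to 115 CPM (median 5.17) and reached 10 CPM in 4 of 11 cells. The WT-KCP cells differed between these neighbours, with Dmkn at 73.5, 71.8, 24.9 and 23.3 CPM and Krtdap at 4.37, 0, 0 and 0 CPM. All 4 Dmkn values in WT-KCP therefore lay within the range of WT-KCB.

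Sbsn, the third gene of the chromosome 7 group, stood at 325 CPM (313 to 338) in the WT-KCI cell. It had a count in 6 of 11 WT-KCB cells, with a highest value of 21.5 CPM, and the WT-KCP cells held 0.875, 0, 0 and 1.73 CPM. Calml3, a calmodulin-like calcium-binding protein of stratified epithelium, stood at 221 CPM (211 to 231) in the WT-KCI cell. It was at 0 in 9 of the 11 WT-KCB cells, with 19.8 CPM in 1 cell and 0.509 in another. The WT-KCP cells held 9.62, 0, 0 and 0 CPM.

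The cross-linking enzymes differed in level. Tgm1, the membrane-bound transglutaminase of keratinocytes, stood at 261 CPM (250 to 272) in the WT-KCI cell and at 0 in 10 of 11 WT-KCB cells, with 54.7 CPM in the remaining cell. The WT-KCP cells held 0, 0.285, 0 and 0 CPM of Tgm1. Tgm3, a transglutaminase of later differentiation, reached 5.34 CPM (3.88 to 7.16) in the WT-KCI cell from 44 counts, below the level called present. The WT-KCB cells held 2 Tgm3 counts in all, a ratio of 234 with a counting interval of 61.1 to 1996, and WT-KCP held none.

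The structural proteins were low throughout. Lor stood at 70.5 CPM (64.9 to 76.4) in the WT-KCI cell, against 0 to 40.6 CPM (median 8.998) in WT-KCB. All 4 WT-KCP cells were at 0 for Lor, and 8 of the 11 WT-KCB cells had a count. With 3 counts as the limit of a 0 over the group, summed WT-KCB stood at least 151.5-fold above WT-KCP. That limit covers amplified counts only and not the spread between cells. Ivl was at 0 throughout the 16 cells, and 3 counts as the limit of a 0 allow 0.364 CPM in the WT-KCI cell. Per kilobase of exon, Krt10 in the WT-KCI cell stood at 7275 CPM per kb, Krt1 at 3140, Krtdap at 2410, Dmkn at 2061, Calml3 at 155, Sbsn at 89.7, Tgm1 at 82.5, Lor at 39.6 and Tgm3 at 1.29. Krt1 and Krt10 together with Krtdap and Dmkn thus made a tier well above the other genes, and neighbours such as Sbsn and Tgm1 were close.

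**Figure D1:**
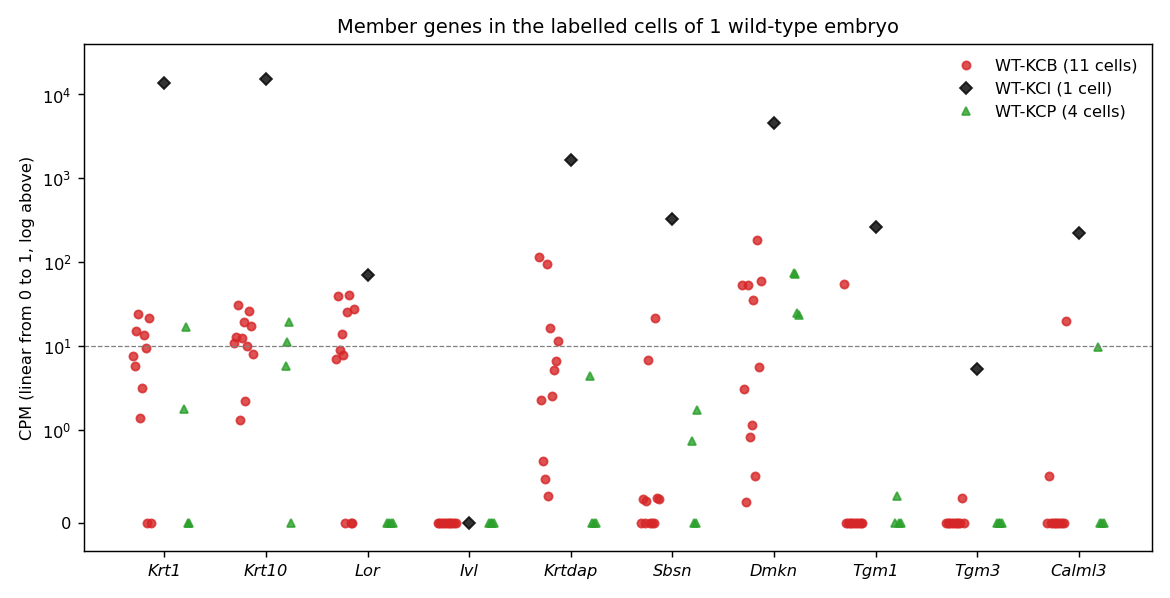
CPM of each of the 10 genes (x axis) in the 16 labelled cells of 1 WT embryo (y axis linear from 0 to 1 CPM and logarithmic above); each point is 1 cell and the dashed line is 10 CPM. The WT-KCI cell lies above every WT-KCB and WT-KCP cell for all genes but Ivl, which is at 0 in all 16 cells.

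With the counts of each label summed, a gene was called where CPM + 1 differed by at least 4-fold, among genes with a mean of at least 1 CPM. In WT-KCI against WT-KCB, 7.72% of 13852 genes tested were called higher and 32.8% lower, and the median log2 ratio of all genes tested was -0.68. Of the 10 genes, 9 passed the filter and were called higher, but Tgm3 and Calml3 passed through the WT-KCI cell alone, so that their direction was fixed by the filter. Of the 7 that passed in both groups (at least 2 CPM in each), 7 were called higher, with a median log2 ratio of 6.48. The 4 of these that were not annotation markers, Krtdap, Sbsn, Dmkn and Tgm1, had a median of 6.25. The 7.72% and -0.68 above include genes that passed through 1 group alone. The share and median of all genes that passed in both groups are not given here, so these 7 stand without a matched background. The ratios on this scale ran from 4.32 for Lor to 1341 for Krt1, with 123 for Dmkn, 89.3 for Sbsn, 79.1 for Calml3, 65.2 for Krtdap and 42.7 for Tgm1. The Lor call lay at the edge of the 4-fold limit, and was lost without WT-KCB cell 6, 9 or 10 (log2 ratios 1.996, 1.98 and 1.99). These calls rest on 1 WT-KCI cell, so they describe that cell.

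In WT-KCP against WT-KCB, 6.59% of 14530 genes tested were called higher and 9.71% lower. Of the 8 genes of the set that passed the filter, none was called higher, and Lor, Krtdap and Tgm1 were called lower, with log2 ratios of -4.05, -3.63 and -2.52. All 3 passed the filter through WT-KCB alone, which fixed their direction. The 3 genes that passed in both groups, Krt1, Krt10 and Dmkn, were not called and had a median of -0.43, and the median of all genes tested was -0.04. The Tgm1 value rests on 1 WT-KCB cell, since without WT-KCB cell 1 the log2 ratio was 0.10. The highest WT-KCB values of Krtdap, 115 and 94.2 CPM, likewise came from 2 cells.

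Other genes of differentiation were counted from lists made for this tissue, beside which the number of calls is given that passed the filter through the higher group alone. Among lipid barrier genes, which make the ceramides and fatty acids of the skin's water barrier, 7 of 10 tested were called higher in WT-KCI and none lower, and 6 of the 7 passed through the WT-KCI cell alone. They included Elovl4, a very-long-chain fatty acid elongase (1275 CPM in the WT-KCI cell and 0.273 in summed WT-KCB), and the lipid transporter Abca12 (245 and 0.843). Of calcium-linked and early suprabasal genes, 14 of 17 were called higher, 4 of them through the WT-KCI cell alone, and none lower. Among them were Perp, a desmosomal protein (6472 and 1292 CPM), Lypd3 (1674 and 6.36) and Ly6d (594 and 0.228). Of 17 differentiation regulators, 9 were called higher, 4 of them through the WT-KCI cell alone, and 4 lower, all 4 through WT-KCB alone. The Grainyhead factors Grhl3 (967 and 6.56 CPM) and Grhl1 (472 and 0.228) and the zinc finger gene Zfp750 (370 and 0.0683) were among the higher ones.

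Of 30 genes of the late cornified envelope, 7 passed the filter in WT-KCI against WT-KCB, beside 13852 of all 55335 genes. The count therefore does not show this list to be missing more than other genes. Sprr1b, Tchh and Crnn did not pass. They were present in 5, 3 and 2 of the 9 libraries with Krt1 plus Krt10 of at least 1000 CPM, described below. Tchh was not particular to these. It was present in 24 of 66 libraries with simple keratins, 13 of 52 with basal keratins and 19 of 78 with high collagen, classes also described below. Sprr1b was present in 0, 2 and 0 of these classes' libraries and Crnn in 0 of each. Flg, Flg2, Hrnr and Rptn had no count in the 9 libraries. Of the 7 genes that passed, 5 were called higher in WT-KCI and 1 lower. The higher genes were the plakins Ppl (741 CPM in WT-KCI and 57.04 in WT-KCB) and Evpl (671 and 15.2), the proteases Asprv1 (1006 and 13.2) and Casp14 (53.01 and 5.24), and Sprr1a (59.7 and 0), the last through the WT-KCI cell alone. Of 4 suprabasal keratins tested, Krt77 (2054 and 1.12 CPM), Krt4 (42.2 and 0) and Krt2 (16.01 and 0) were called higher and Krt16 (0 and 21.4) lower, each having passed through the higher group alone. Of 9 proteases and inhibitors tested, Spint1, Serpinb3a and Klk5 were called higher and 1 lower. Of these, 2 of the higher passed through the WT-KCI cell alone and the lower through WT-KCB alone. In WT-KCP, 2 of 8 late envelope genes were called higher, 1 of them through WT-KCP alone, and 3 lower, all 3 through WT-KCB alone. Of 14 calcium-linked genes 2 were higher and 2 lower, 1 of each through its higher group alone. Of 14 regulators 3 were higher, 1 of them through WT-KCP alone, and none lower. Of 6 lipid barrier genes 2 were higher, each through WT-KCP alone, and none lower. Of 7 proteases and inhibitors 1 was lower, through WT-KCB alone.

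Markers of other cells also differed between the WT-KCI cell and WT-KCB, though calls that passed through the higher group alone had their direction fixed by the filter. The periderm list (Krt17, Krt6a, Krt4, Krt19, Grhl3, Sfn and Cldn4) summed to 2858 CPM in the WT-KCI cell, against 182 to 673 in WT-KCB and 2070 to 4024 in WT-KCP. Of its 6 tested genes 4 were called higher, 1 of them through the WT-KCI cell alone. Sfn (1660 CPM) and Grhl3 (967 CPM) made up most of the sum in the WT-KCI cell, and Sfn, Grhl3 and Krt4 also stand in the differentiation lists above. Its defining gene Krt17 stood at 41.5 CPM in the WT-KCI cell, within the 4.37 to 613 CPM of WT-KCB and under the 1715 to 3902 of WT-KCP. In summed WT-KCP, Krt17, by which the labels name those cells, stood at 2923 CPM. The rest of the list there was at 263 (Sfn), 79.2 (Grhl3), 61.9 (Cldn4), 0.342 (Krt6a) and 0 CPM (Krt4 and Krt19). The WT-KCP cells also held 1041 to 2255 CPM of Krt5 and 1508 to 4059 CPM of Krt14. Of the basal list, 5 of 6 genes were called lower in the WT-KCI cell, 3 of them through WT-KCB alone. The cycling list summed to 1.82 CPM in the WT-KCI cell, 1.78 to 3712 (median 528) in WT-KCB and 937 to 5904 in WT-KCP. Its 4 genes were called lower in the WT-KCI cell, all 4 through WT-KCB alone. Of the simple epithelium list 3 of 4 genes were lower (Krt8 and Krt18, through WT-KCB alone, and Epcam) and Krt19 was higher. The fibroblast list summed to 46.6 CPM in the WT-KCI cell and to 165 to 1125 in WT-KCB. Dcn and Col3a1 were called lower, each through WT-KCB alone, and Vim higher (45.1 and 8.65 CPM). The melanocyte gene Pmel was called higher (18.2 and 2.83 CPM) while Dct, Mitf and Kit were at 0. The part of these cells in the member values was not tested. The endothelial, leukocyte, neural, muscle and Merkel cell lists were at 0 in the WT-KCI cell.

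Over all 237 libraries, Dmkn was present in 83 (35.02%, exact 95% binomial interval 28.96% to 41.5%), Krtdap in 81 (34.2%), Krt10 in 67 (28.3%), Tgm1 in 44 (18.6%), Krt1 in 38 (16.03%), Lor in 37 (15.6%), Sbsn in 19 (8.02%), Calml3 in 13 (5.49%) and Tgm3 in 4 (1.69%). The binomial intervals of every pair of neighbours in this order overlap, such as 22.6% to 34.5% for Krt10 and 13.8% to 24.1% for Tgm1. Ivl was never present. It had counts in 1 library, at 0.376 CPM, and 0 of 237 libraries at 10 CPM allows a share of up to 1.27%, with 3 libraries as the limit of a 0 (exact upper bound 1.54%). When every library was thinned to 500000 counts, the numbers became 82 for Dmkn, 83 for Krtdap, 78 for Krt10, 44 for Tgm1, 41 for Krt1, 40 for Lor, 23 for Sbsn, 13 for Calml3, 4 for Tgm3 and 0 for Ivl.

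The sum of Krt1 and Krt10 reached 1000 CPM in 9 libraries, of which 1 was the labelled WT-KCI cell and 8 had no label. All 9 held Krt5, at 456 to 4761 CPM, and none held collagen Col1a1. No library lay between 329 and 1240 CPM, so the limit falls in a gap. The ratio of Krt1 to Krt10 was not constant, with values from 0.254 to 2.09 across the 9. Krt14 was under 100 CPM in 6 of the 9 and at 1146, 1246 and 5756 CPM in the other 3, and those at 1146 and 1246 CPM also held 6297 and 5135 CPM of Krt17, a keratin abundant in periderm. Markers of cycling cells summed to 1.82 to 2579 CPM over the 9, with a median of 683.

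Of the 8 genes beside Krt1 and Krt10, all but Ivl had counts in these libraries. Dmkn ran from 987 to 5323 CPM (median 2412) and Krtdap from 551 to 3538 (median 1065). Every value of both was above every value of the 44 libraries with Krt5 and Krt14 but Krt1 plus Krt10 under 100 CPM, whose highest Dmkn was 724 and highest Krtdap 115 CPM. Such a separation was seen for 2 of the 7 tested genes and for 0.259% of 14312 genes, and since the 9 libraries were picked by the keratins that rise with these genes, it is a description.

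The remaining genes overlapped with those 44 libraries or were patchy. Tgm1 ran from 64.7 to 395 CPM (median 261) against a highest value of 69.4 in the 44. Lor ran from 21.3 to 151 CPM (median 42.1) against 40.6, and Sbsn from 23.6 to 1620 (median 113) against 92.6. Calml3 was present in 6 of the 9 libraries, with a median of 19.6 and a highest value of 353 CPM. Tgm3 was present in 3, with a median of 5.34 and a highest value of 92.5 CPM. Library 6 of the 9, at 13038 CPM of Krt1 plus Krt10, held the highest Sbsn, Calml3, Lor, Krtdap, Dmkn and Tgm1 of the group although 3 libraries had more Krt1 and Krt10.

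**Figure D2:**
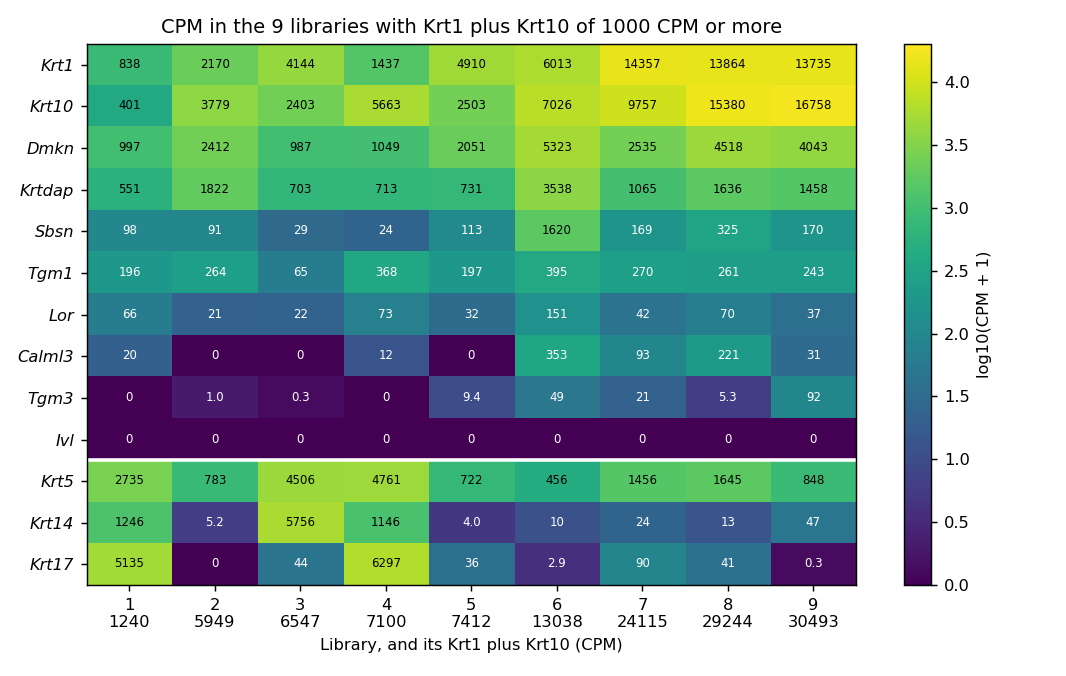
CPM of the 10 genes and of Krt5, Krt14 and Krt17 (rows) in the 9 libraries with Krt1 plus Krt10 of 1000 CPM or more (columns, in rising order of that sum; colour is log10(CPM + 1) and each number is CPM). Dmkn, Krtdap, Sbsn, Tgm1 and Lor are present in all 9, Calml3 in all 4 libraries above 10000 CPM and in 2 of the 5 below, and Ivl in none.

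The order of appearance was read in the 152 libraries with at least 100 CPM of Krt5, Krt14, Krt8 or Krt18, in bins of Krt1 plus Krt10. A gene was placed at the lowest bin in which it was present in at least 50% of the libraries. Krtdap and Dmkn were placed in the lowest bin, where Krt1 and Krt10 had no count: there they were present in 6 and 7 of 12 libraries. At above 0 to 10 CPM they were present in 36 and 31 of 64 libraries, and at 10 to 100 CPM in 26 and 32 of 60. In the next bin, 100 to 1000 CPM, each was in 4 of 7 libraries. Above 1000 CPM both were present in all 9. The share of libraries with either gene thus lay between 43.3% and 58.3% over the whole lower range and at 100% at the top. The level was higher at the top too, with medians of 713 and 1547 CPM for Krtdap in the bins 1000 to 10000 and at least 10000, against 18.6 CPM or less in the bins below.

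Lor, Sbsn and Tgm1 were placed next by this rule, at 1000 to 10000 CPM. At above 0 to 10 CPM of Krt1 plus Krt10 they were present in 10, 1 and 16 of 64 libraries, at 10 to 100 CPM in 13, 6 and 9 of 60, and at 100 to 1000 CPM in 2, 1 and 2 of 7. All 5 libraries at 1000 to 10000 CPM and all 4 above held all 3 genes. These top bins and those of 12 and 7 libraries are thin, and presence in 5 of 5 libraries has a lower binomial bound of 47.8%. Calml3 and Tgm3 were placed in the highest bin. Calml3 was present in 2 of 5 libraries at 1000 to 10000 CPM and in 4 of 4 above, and Tgm3 in 0 of 5 and 3 of 4. The place of Calml3 above Sbsn rests on 2 of 5 against 5 of 5 libraries, whose intervals overlap (5.27% to 85.3% and 47.8% to 100%). Below 1000 CPM, Calml3 was present in 7 libraries and Tgm3 in 1. By another measure, the median Krt1 plus Krt10 of the libraries that held the gene, Calml3 (115 CPM) came before Sbsn (329 CPM). By it Tgm1 (14.3 CPM) and Lor (26.5 CPM) lay near Krtdap (9.47 CPM) and Dmkn (11.9 CPM), and far from Sbsn. The order of these genes, and the place shared by Lor, Sbsn and Tgm1, are therefore not settled. Ivl was absent from every bin at this level.

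The lower bins mix libraries with simple and with basal keratins. In the 80 libraries with Krt5 of at least 100 CPM, a selection made after the data were seen, every gene was placed in the same bin. Its lowest bin held 3 libraries, of which 2 held Krtdap, both with Krt8 of over 1000 CPM, so this selection did not remove the mixing. In its larger bins Krtdap was present in 8 of 19 and 17 of 42 libraries and Dmkn in 12 of 19 and 27 of 42. Over all 237 libraries, Krtdap and Dmkn were placed at 100 to 1000 CPM. With Krt10 alone as the axis, Lor and Tgm1 were placed at 100 to 1000 CPM, and with Krt1 alone Lor, Sbsn and Tgm1 were. At a presence level of 100 CPM, Krtdap and Dmkn were placed at 1000 to 10000 CPM and Sbsn at 10000 CPM or more, while Lor and Tgm3 were placed in none. Single libraries were nevertheless high with little or no Krt1 and Krt10. Where these had no count, Krtdap reached 561, Dmkn 429 and Tgm1 97.9 CPM. At above 0 to 10 CPM the 3 genes reached 870, 1375 and 774 CPM. That Tgm1 value lay above the highest of the 9 libraries with high Krt1 and Krt10, 395 CPM.

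**Figure D3:**
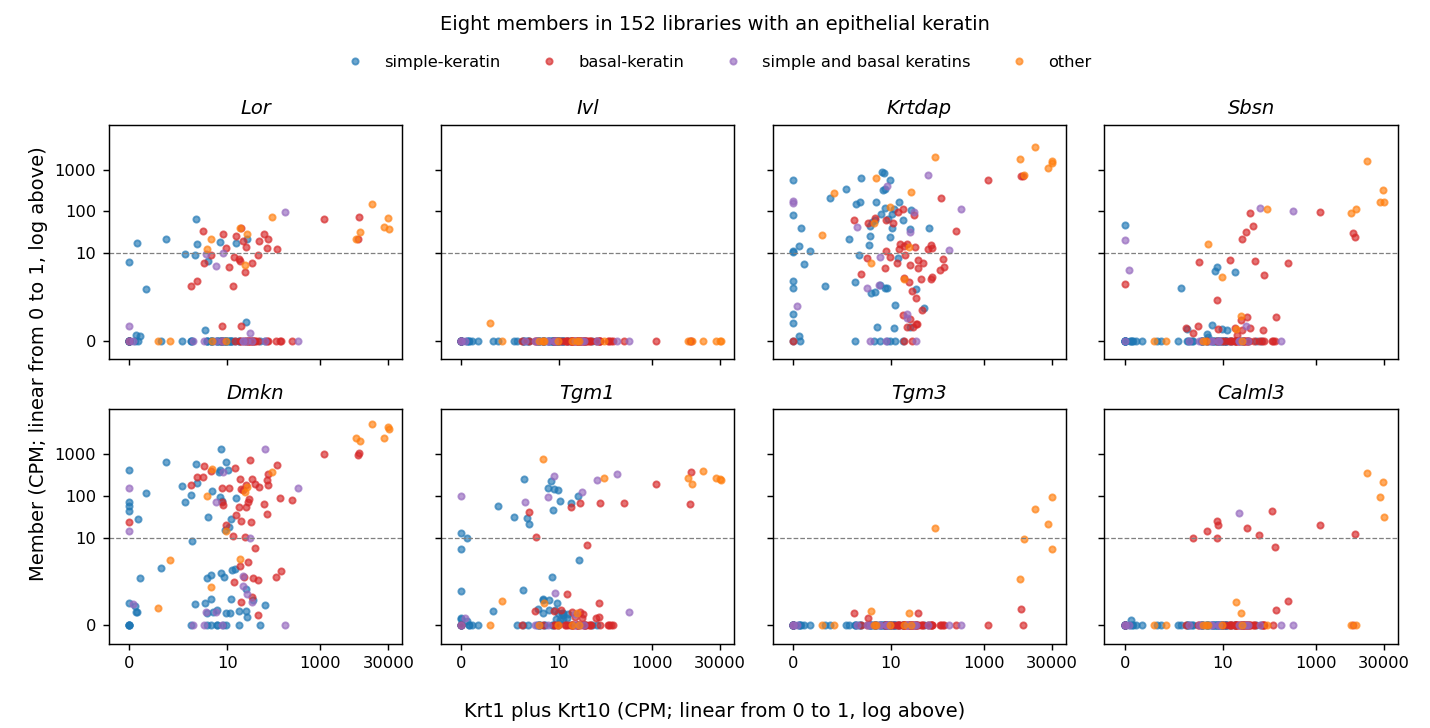
CPM of the 8 genes beside Krt1 and Krt10 (y axes) against the sum of Krt1 and Krt10 (x axes; both linear from 0 to 1 CPM and logarithmic above) in 152 libraries with an epithelial keratin, coloured by keratin class, with a dashed line at 10 CPM. Krtdap and Dmkn are scattered over the whole range, Sbsn, Tgm1 and Lor are present in all 9 libraries at the right, and Calml3 and Tgm3 are mostly at 0 elsewhere.

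Of the 152 libraries, 59 held both Krtdap and Dmkn, which is 72.8% of those with Krtdap and 71.1% of those with Dmkn. Of the 19 libraries with Sbsn, 18 held Dmkn and 16 held Krtdap. All 4 libraries with Tgm3 also held Lor, Krtdap, Sbsn, Dmkn and Tgm1. Calml3 did not nest in this way, since of its 13 libraries 10 held Krtdap, 10 Dmkn, 8 Lor, 6 Sbsn, 6 Tgm1 and 3 Tgm3. Across the 152 libraries, which share the scaling by library total, Pearson's r of log2(CPM + 1) was 0.75 between Krt1 and Krt10, 0.65 between Krtdap and Dmkn, 0.64 between Krt1 and Tgm3 and 0.26 between Dmkn and Tgm1. With the log2 of Krt1 plus Krt10, r was 0.64 for Sbsn, 0.52 for Calml3, 0.45 for Lor, 0.42 for Dmkn, 0.40 for Tgm1 and 0.35 for Krtdap. Among 14408 genes ranked by this r, Sbsn was at rank 23 and Krtdap at rank 200.

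The genes outside the set whose pattern was most like that of Krt1 plus Krt10 over the 152 libraries were Rdh12 (r = 0.76), Cyp4f39 (0.74), Capns2 (0.74), Them5 (0.74), St8sia6 (0.73), Sdr16c6 (0.73), Serpinb12 (0.72), Dsg1a (0.70), Elovl4 (0.69) and Rhov (0.69). Rdh12 and Sdr16c6 encode retinol dehydrogenase family enzymes, Cyp4f39 and Elovl4 belong to lipid barrier formation, and Dsg1a encodes a desmosomal cadherin of upper layers. Cyp4f39 and St8sia6 were at 10 CPM in 8 of the 152 libraries each, all 8 of them among the 9 libraries with high Krt1 and Krt10. By contrast Dmkn, at 83 libraries, was found widely outside them.

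Libraries with simple keratins (Krt8 and Krt18 at least 100 CPM, Krt5 and Krt14 under 100 CPM) numbered 66 and carry no label here. Simple keratins mark the single-layered surface ectoderm that precedes stratification as well as other simple epithelia. Of the periderm list, Cldn4 was present in 60 of the 66 libraries, Sfn in 58, Grhl3 in 55 and Krt19 in 40, but Krt4 in 7, Krt17 in 5 and Krt6a in 1. Which cell type the libraries with simple keratins are was not tested. In these libraries Krtdap was present in 36 of 66 (54.5%, 41.8% to 66.9%), Dmkn in 25 (37.9%, 26.2% to 50.7%) and Tgm1 in 14 (21.2%, 12.1% to 33.02%). The highest values were 870 CPM for Krtdap, 1375 for Dmkn and 249.5 for Tgm1, and the medians were 12.8, 1.07 and 0.236. Krtdap and Dmkn were both present in 22 of them. The keratins of differentiation did not reach such values, since the highest Krt1 was 60.5 and the highest Krt10 52.2 CPM.

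The share with a gene was read against 78 libraries with Col1a1 and Col3a1 of at least 100 CPM and none of the 4 keratins at that level, which should lack these genes. Their median total was 6085480.5 counts, against 7277067 in the simple-keratin libraries. None of the 78 held Krtdap or Dmkn, which allows a share of up to 3.85% with 3 libraries as the limit of a 0 (exact upper bound 4.62%), and the highest values were 1.49 and 7.58 CPM. Tgm1 was present in 6 of 78 (7.69%, 2.88% to 15.99%), Krt10 in 7 (8.97%, 3.68% to 17.6%), and Lor in 3 (3.85%, 0.80% to 10.8%). Krt10 in 11 of 66 simple-keratin libraries (16.7%, 8.62% to 27.9%), Lor in 7 (10.6%, 4.37% to 20.6%), Tgm1 in 14 and Krt1 in 4 (6.06%, 1.68% to 14.8%, against 0 of 78) had intervals that overlap those of the collagen-high libraries. Sbsn was present in 1 of 66. Ivl, Tgm3 and Calml3 were present in 0 of 66, which allows a share of up to 4.55% in the same way (exact upper bound 5.44%). Of the 10 genes, Krtdap and Dmkn had shares in simple-keratin libraries whose intervals lie clear of those in collagen-high libraries. These intervals count each library as independent, but cells share embryos: by the labels all 70 p63 KO fibroblasts came from 1 embryo, and 22 of 50 p63 KO-SER cells came from 1 of 7 embryos. How the unlabelled libraries fall on embryos is not known here.

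Set beside the 52 libraries with basal keratins (Krt5 and Krt14 at least 100 CPM, Krt8 and Krt18 under 100 CPM), Krtdap was present at shares with overlapping intervals, 54.5% against 42.3% (28.7% to 56.8%), and so was Tgm1, 21.2% against 17.3% (8.23% to 30.3%). Dmkn was less often present in simple-keratin libraries, 37.9% against 76.9% (63.2% to 87.5%), and so were Krt1, 6.06% against 42.3% (28.7% to 56.8%), and Krt10, 16.7% against 63.5% (48.96% to 76.4%). Calml3 was present in 0 of 66 against 8 of 52 (15.4%, 6.88% to 28.1%). Of the basal-keratin libraries, 3 belong to the 9 with high Krt1 and Krt10. In 18 libraries with simple and basal keratins together, Krtdap was present in 9, Tgm1 in 7, Dmkn in 6 and Sbsn in 3.

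**Figure D4:**
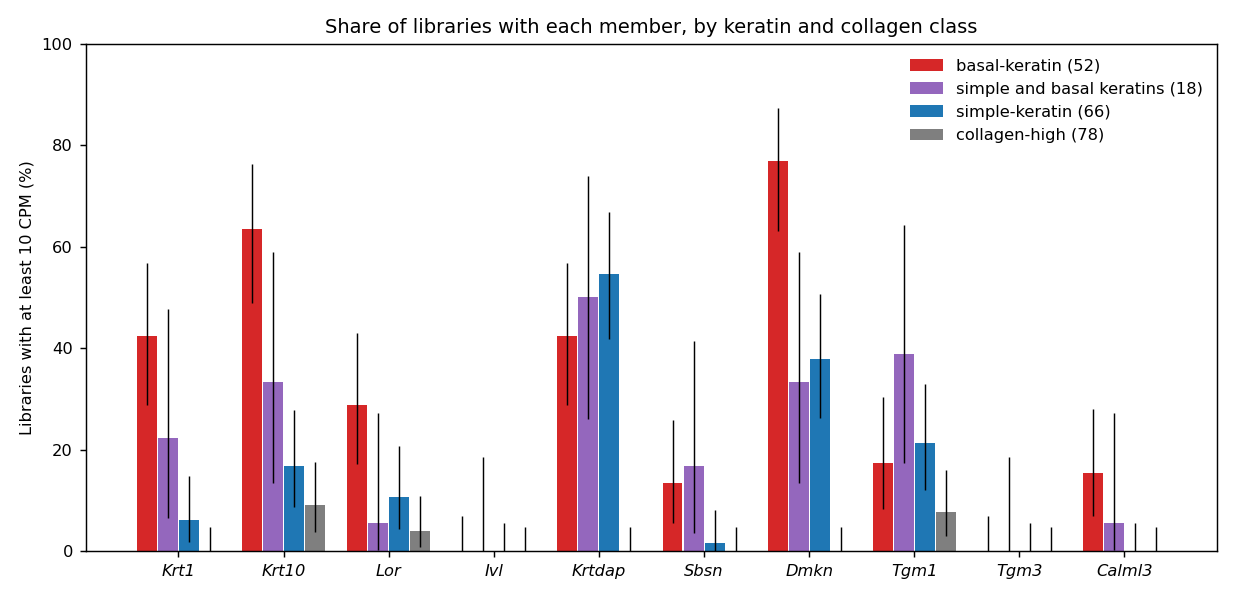
Percent of libraries in which each gene reached 10 CPM (bars from 0, with exact 95% binomial intervals) in libraries with basal keratins (52), with simple and basal keratins (18), with simple keratins (66) and with high collagen (78). Krtdap and Dmkn are at 54.5% and 37.9% in simple-keratin libraries and at 0 in collagen-high libraries.

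Taken one library at a time, 43 of the 66 simple-keratin libraries held at least 1 of the 8 genes beside Krt1 and Krt10, 27 at least 2, 11 at least 3 and 2 held 4. The 2 with 4 genes held Krtdap at 645 and 208 CPM, Dmkn at 205 and 649, Tgm1 at 21.1 and 55.8 and Lor at 16.4 and 21.2, with Krt5 and Krt14 under 2 CPM in both and Krt1 and Krt10 at 1.26 CPM or less. They also held Col3a1 at 1882 and 203 CPM, and the second held 956 CPM of Krt15. By comparison, all 9 libraries with high Krt1 and Krt10 held at least 5 of the 8. Of the 44 basal-keratin libraries with Krt1 plus Krt10 under 100 CPM, 39 held at least 1, 25 at least 2, 10 at least 3 and 2 held 4. Several genes in 1 library were therefore not particular to simple-keratin libraries. Of the 78 collagen-high libraries, 9 held 1 gene and none held more.

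The simple-keratin libraries also varied in Krt15 and in collagen. Krt15 was at 100 CPM or more in 36 of the 66, and Krtdap was present in 24 of those 36 (66.7%, 49.03% to 81.4%) and in 12 of the 30 without (22.7% to 59.4%). Collagen (Col1a1, Col1a2 or Col3a1 at 100 CPM or more) was found in 34 of the 66, and the fibroblast list summed to 1.76 to 9124 CPM over the class. Krtdap was present in 20 of the 34 with collagen and in 16 of the 32 without, and Dmkn in 9 and 16. The part of collagen-bearing material in the Dmkn count was not tested. The share of simple-keratin libraries with at least 1 of the 8 genes, 65.2%, was 62.5% in the 32 libraries without collagen.

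One library outside these classes, chosen after its values were seen, held a differentiation profile with little Krt1 or Krt10. At 91.1 CPM of Krt1 plus Krt10 it held 2012 CPM of Krtdap, 372 of Dmkn, 276 of Tgm1, 110 of Sbsn, 71.7 of Lor and 17.4 of Tgm3, with 2695 CPM of Krt5, 1.31 of Krt14 and 627 of Krt8. It was the single library below 1000 CPM of Krt1 plus Krt10 in which Tgm3 was present.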

How the data were processed

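Single-cell SMART-Seq HT libraries from E14.5 mouse skin were analysed. The authors aligned paired reads to mm10 with HISAT2, counted them with featureCounts on Ensembl release 97 and describe removing libraries of low integrity. The labels of the 237 samples still include cells marked omit (1 WT and 10 p63 KO) and unknown (1 WT and 12 p63 KO). No library was left out of the pool for this. The deposited values are estimated counts per gene and library, not normalized by the authors. Of the values above 0, 23.23% were not whole, and all were rounded, ties going to the even number. Whether counting used the strand is not given in the sources used here, so reads of Krt10, Tgm1 and Tgm3 cannot be told apart from those of genes overlapping them on the other strand (Gm11940, Gm49067, Mir6339), nor those of Sbsn from Tmem147os. Columns are named by sequencing run, and 16 of 237 were paired with a label through a table of normalized values per named cell that the study gives. With this rounding, chosen after the comparison was seen, 4789 of 4789 values stood in 1 ratio per cell with that table, within 0.1%. The other 221 were used as 1 pooled sample. No 2 columns were identical.

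CPM was the rounded count divided by the library total. Fold calls used summed counts, a pseudocount of 1 CPM, a mean of at least 1 CPM and a fold of 4. The call was tested on simulated data. A library was called present for a gene at 10 CPM. Symbols were found for 55154 of 55335 identifiers. Positions and exon lengths came from GENCODE vM21 (GRCm38), and upstream sequences from the RefSeq promoter table, which held 8 of the 10 genes. The genes and lists were chosen with earlier results of these data known. Named beside the 10 genes were the keratins and collagens that define classes, at most 6 genes per list with the highest CPM in WT-KCI, and the 10 genes with the highest r. Outside this rule, Sprr1b, Tchh, Crnn, Flg, Flg2, Hrnr, Rptn and Krt16, all at 0 CPM in WT-KCI, were named too. Cell type markers were named without this limit. The regulators called lower are not reported here by name. Other settings varied rounding, totals, pseudocount, scaling, filter, fold, presence level, depth, axis and class limits, and left out each cell in turn. Computing used scipy 1.17.1, pandas 2.3.3, numpy 2.4.6 and, for plots, matplotlib 3.10.9, under Python 3.11.15.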

Additional observations from a re-analysis of the deposited data

Results flagged for a closer look

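In the 4 WT-KCP cells, 1 cell stood far above the other 3 for 4 of the 7 genes whose values varied: Krt1 at 16.8 CPM, Krtdap at 4.37 CPM, Calml3 at 9.62 CPM and Tgm1 at 0.285 CPM. The others were at 0 for Krtdap, Calml3 and Tgm1. By Dixon's criterion chance singles out about 1 in 20 such groups, and a lone cell with counts among cells at 0 always meets it. WT-KCP cell 1 was the far one for Krtdap and Calml3, and WT-KCP cell 2 for Krt1 and Tgm1. The Tgm1 value rests on 2 counts. The WT-KCB cells, over 10 in number, were not examined in this way.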

How the results depend on the processing

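With 1 WT-KCI cell and 1 embryo, the calls between labels have no replicate error, and the classes and bins of libraries were cut from the same values they describe. No paired analysis was possible because the labelled cells come from 1 embryo and no test was made. With a fold of 2 in place of 4, 2267 genes were called higher in WT-KCI, 2492 higher and 2946 lower in WT-KCP. At 100 CPM, 68 libraries held at least 1 of the 8 genes beside Krt1 and Krt10, against 127 at 10 CPM. Of these 8, 5 were placed at 1000 CPM of Krt1 plus Krt10 or above, but 3 with Krt10 alone and 2 with Krt1 alone as the axis. At a presence level of 100 CPM the number was 5 too, with Krtdap and Dmkn in place of Lor and Tgm3. Without WT-KCB cell 1, the log2 ratio of Tgm1 in WT-KCP against WT-KCB turned to 0.10, and over all cells left out in turn it ran from -2.65 to 0.10. When each cell was left out in turn, 8 to 9 of the genes were called higher in WT-KCI and 2 to 4 lower in WT-KCP, 4 of them without WT-KCP cell 2, when Krt1 stood at -2.75. Sbsn in WT-KCP reached -2.01 with a pseudocount of 0.1 CPM. The cause of these differences was not tested. The other 149 values that answer a comparison stayed within 1.5 times the reported count, or within the binomial interval of the reported share. The restriction to Krt5 of at least 100 CPM, leaving out high libraries with Krt14 of at least 1000 CPM, and the limit of 10 CPM on Krt5 and Krt14 were chosen after the data were seen. No library had under 500000 counts.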
